A study of Homo sapiens with 18 samples.

Results

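The sites described here are the top-ranked listed peaks of estrogen receptor α (ERα) binding in control ZR751 cells. They were compared by whether they lay in chromatin marked by monomethylated lysine 4 of histone H3 (H3K4me1). They were the 5000 peaks with the highest signal in each of 2 ERα libraries, or 10000 of the 3365315 peaks in the 12 deposited lists of the series. They were set against the 50000 H3K4me1 peaks with the highest signal in each of 2 libraries. A site was inside when it overlapped an H3K4me1 peak of both libraries by at least 1 bp, and outside when it overlapped a peak of neither. Sites that overlapped a peak in 1 of the 2 H3K4me1 libraries formed a separate class.

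ZR751 (ZR75-1) is an established line of ER+ luminal breast cancer cells. All control values came from ZR751shLucif, a stably transduced line that carries a hairpin RNA against luciferase, sorted for a fluorescent reporter and grown in medium with serum and insulin. Its counterpart ZR751shMLL3 carries a hairpin against MLL3 (KMT2C), an H3K4 methyltransferase, and was used here only to look sites up. Each assay had 2 biological replicates from 1 experimental repetition, and no hormone treatment is named for the chromatin or RNA samples. By their library names, ERα replicate 1 and both H3K4me1 libraries belong to one series of libraries, and ERα replicate 2 and the input belong to another.

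ERα is a nuclear receptor that binds DNA as a dimer when estrogen is present. Its palindromic response element carries a copy of the same short arm on each strand, and many sites hold a single arm or are reached through partner factors such as FOXA1 and GATA3. H3K4me1 is laid down by MLL3 and MLL4 and marks enhancers, usually on the nucleosomes at the sides of a bound factor, while active promoters tend to carry trimethylated H3K4 in its place. In breast cancer cells most ERα sites lie far from promoters.

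The cells carried the RNA of their labelled type. All 8 luminal epithelial markers were at or above 11.2 FPKM, a measure of RNA scaled to gene length and library size, in both control RNA libraries, and ESR1, which encodes ERα, was at 11.2 and 14.2 FPKM. All 4 basal markers and all 3 leukocyte markers were below 1 FPKM, and 2 of 4 mesenchymal markers passed it, with COL1A1 at 17.8 and 13.1 FPKM. The summed luminal markers stood at 12536 and 4944 FPKM and the summed mesenchymal ones at 20.7 and 14.5 FPKM.

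The lists differ in form. All 5000 sites of ERα replicate 1 were listed at a width of 204 bp, and those of replicate 2 had a median width of 476 bp, which gives replicate 2 more room to overlap. In replicate 1, 812 peaks shared the signal value at rank 5000, of which 610 were taken, and in replicate 2 the sites merged into 4689 separate regions. The H3K4me1 peaks had median widths of 964 and 900 bp and covered 1.25% and 1.18% of the genome. Each list has its own signal scale, so signals were used only as ranks. The read depth behind single peaks is unknown. At a false discovery rate (FDR) of 0.01 there were 98579 peaks in ERα replicate 1 and 3797 in replicate 2. The 5000 sites of replicate 2 thus ran past that limit, to an FDR of 0.0125. The study's own reproducibility check within each library went the other way, passing far fewer peaks in replicate 1 than in replicate 2. The study rated its control ERα set as borderline. How many of the listed sites of replicate 1 are background was not tested. Of all 5000 sites, 4.6% of replicate 1 and 6.94% of replicate 2 overlapped a top site of the other library. Most listed sites were therefore not found in both libraries.

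Sequences are printed for strong sites of each class that both ERα libraries listed and that held the palindromic element, because they show the same element under sites of both kinds. They were taken in the order of rank, with some sites, such as those in untranslated regions, left out. Each sequence runs from 50 bp before to 50 bp after the summit in ERα replicate 2, on the plus strand of hg19, 5′ to 3′. The capitals mark the palindromic element, searched as GGTCANNNTGACC. The 4 inside sites are named by their nearest gene with a row in the RNA table.
TPM3, chr1:154163143-154163243: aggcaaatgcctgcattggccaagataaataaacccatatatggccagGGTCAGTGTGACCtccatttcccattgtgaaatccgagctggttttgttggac
AHR, chr7:17595994-17596094: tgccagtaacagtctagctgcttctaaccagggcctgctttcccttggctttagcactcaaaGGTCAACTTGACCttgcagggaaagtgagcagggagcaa
WNK1, chr12:834409-834509: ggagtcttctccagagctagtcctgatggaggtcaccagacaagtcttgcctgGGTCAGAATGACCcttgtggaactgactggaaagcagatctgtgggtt
GREB1, chr2:11672601-11672701: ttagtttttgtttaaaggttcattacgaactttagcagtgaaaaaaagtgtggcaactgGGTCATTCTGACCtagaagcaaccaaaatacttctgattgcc
The 3 outside sites, named the same way, are as follows.
MIR4472-2, chr12:116828340-116828440: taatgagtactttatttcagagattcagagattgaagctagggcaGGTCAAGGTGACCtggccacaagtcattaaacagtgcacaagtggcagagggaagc
TEX14, chr17:56717146-56717246: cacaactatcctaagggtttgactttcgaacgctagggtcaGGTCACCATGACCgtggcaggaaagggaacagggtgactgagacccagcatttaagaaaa
CTPS2, chrX:16680608-16680708: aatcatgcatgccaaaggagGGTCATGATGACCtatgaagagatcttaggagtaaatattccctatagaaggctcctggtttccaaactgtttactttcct
TPM3 encodes a tropomyosin of the actin filament, AHR the aryl hydrocarbon receptor, WNK1 a kinase that controls ion transport and GREB1 a cofactor and well-known target of ERα. TEX14 encodes a protein of germ cell bridges and CTPS2 a CTP synthase. The element lay within 24 bp of the summit in all 7 sequences.

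The listed ERα sites lay in top H3K4me1 peaks more often than the same intervals placed elsewhere, but most of them lay in none of these peaks. In ERα replicate 1, 104 of 5000 sites were inside, 2.08% (95% Wilson interval 1.72 to 2.51), 246 were in 1 H3K4me1 list and 4650 (93%) were outside. In replicate 2, 459 sites were inside, 9.18% (8.41 to 10.0), 763 were in 1 list and 3778 (75.6%) were outside. When each site was moved by 50 kb to the right or left, 1.20% and 0.94% were inside for replicate 1 and 2.68% and 2.66% for replicate 2. Over the whole deposited lists, 1.17% of the peaks of replicate 1 and 2.17% of those of replicate 2 were inside. The intervals on shares cover counting error only.

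The share depended on how deep the H3K4me1 lists were read and on how far from the summit a peak was accepted. Against the whole H3K4me1 lists, 9.72% and 32.9% of the sites of ERα replicates 1 and 2 were inside both. With the top H3K4me1 peaks, the summit lay within 2 kb of a peak of both libraries for 8.28% and 22.4% of the sites, and within 5 kb for 13.4% and 31.5%. Outside the whole lists of both H3K4me1 libraries were 76.9% and 47.1% of the sites. A site outside the top peaks could therefore still lie in a weaker listed peak. The whole H3K4me1 lists hold 299979 and 299988 peaks, and longer lists or wider windows cover more of the genome. Moved sites were not compared with the whole lists or at these distances, so these shares have no background here.

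For comparison, 2.82% and 1.60% of the 5000 top sites of the transcription factor SP1 in replicates 1 and 2 of the same cells lay inside both H3K4me1 lists. Of the 5000 top ERα sites of ZR751shMLL3, 4.16% and 0.76% lay inside both H3K4me1 lists of that line. The range of the ERα values of ZR751shLucif, 2.08% to 9.18%, overlapped both of these ranges, so no order between the sets was read.

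Stronger ERα sites were inside more often. In replicate 1 the share inside fell from 4.6% in the first 500 ranks to 1.20% in the last 500, a difference of 3.4 percentage points (95% Newcombe interval 1.34 to 5.70). In replicate 2 it fell from 17.6% to 5.60%, a difference of 12 points (8.11 to 16). The median rank was 1768 inside and 2534.5 outside in replicate 1, and 1505 and 2757.5 in replicate 2. In replicate 1 only 4390 sites had a signal above that of rank 5000, so the last 500 ranks were all tied. Ranks 2137 to 2986 of replicate 1 were tied as well, and the outside median fell among them. Tied sites kept the order of the deposited list, so rank does not order them by strength. Even so, the strongest sites of all were mostly not inside. Among the 20 top sites, 14 were outside and 1 inside in replicate 1, and 11 outside and 2 inside in replicate 2. Within the first 1000 ranks taken alone the order did not hold, since the difference between the first and last 100 sites was 7 points (-0.05 to 14.7) in replicate 1 and -7 points (-17.9 to 4.05) in replicate 2. Without chromosomes 1, 7 and 12 the difference in replicate 1 was 1.55 points (-0.44 to 3.75), and that in replicate 2 was 9.51 points (5.17 to 14.1).

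**Figure D1:**
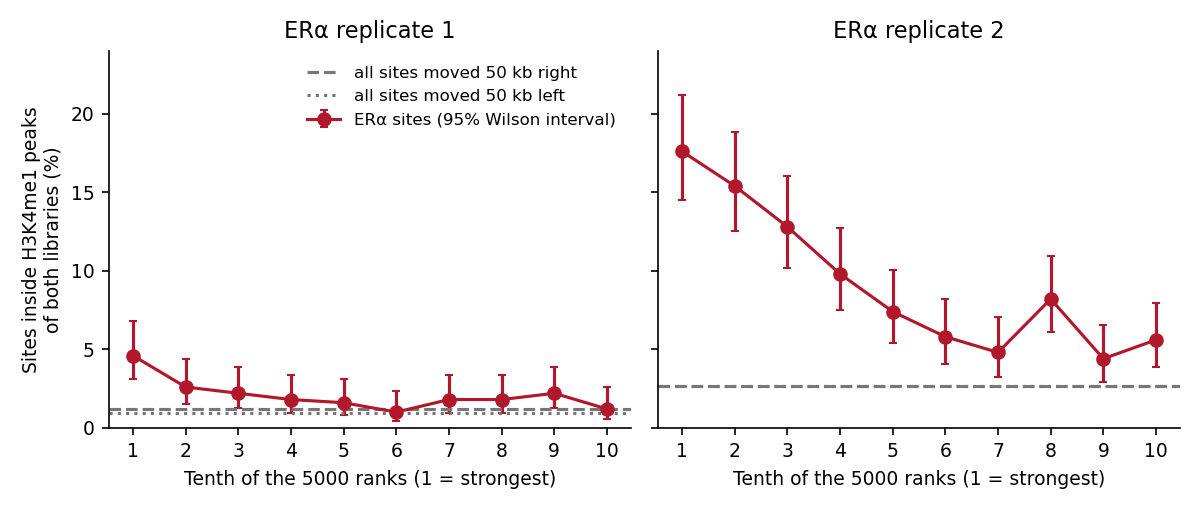
Share of ERα sites inside H3K4me1 peaks of both libraries (vertical axis, %) for each run of 500 of the 5000 ranks (horizontal axis), with 95% Wilson intervals. Grey lines give the share for all sites moved by 50 kb to either side, which nearly coincide in replicate 2. The share starts at 4.6% and 17.6% and reaches the moved level in replicate 1 but not in replicate 2.

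The rank difference depended on how close to the summit a peak of both libraries had to lie. When the ERα summit itself had to lie in an H3K4me1 peak of both libraries, 2.60% of the first 500 sites and 1.00% of the last 500 did so in replicate 1, and 6.60% and 4.6% in replicate 2. These differences of 1.60 points (-0.10 to 3.49) and 2 points (-0.89 to 4.94) were not told from 0. When a peak within 1 kb of the summit was accepted, the shares were 16% and 3.6% in replicate 1, and 38.6% and 9.80% in replicate 2. The differences were then 12.4 points (8.82 to 16.1) and 28.8 points (23.7 to 33.7).

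Averaged over the strongest ERα sites, H3K4me1 peaks were less frequent at the summit than at its sides. At each of these positions taken alone, most of these sites had no top peak. For the first 500 sites of ERα replicate 2, 17% of the summits lay in a peak of H3K4me1 replicate 1 (95% Wilson interval 14.0 to 20.5). At 750 bp to the left it was 29.8% (26.0 to 34.0), and at 750 bp to the right 24.6% (21.0 to 28.6). Against H3K4me1 replicate 2 the values were 31.8% on the left, 19.6% at the summit and 28.0% on the right. For the first 500 sites of ERα replicate 1 the shares against H3K4me1 replicate 1 were 14%, 7.80% and 11.2%, and against H3K4me1 replicate 2 they were 12.4%, 8.20% and 10.6%. The share at the summit was thus the lowest of the 3 positions in all 4 pairs of libraries, although in ERα replicate 1 the intervals at the summit and on the right overlapped, as did those at the summit and on the left against H3K4me1 replicate 2. At 5 kb on either side the shares were between 2.80% and 5.80%.

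The weakest sites had fewer H3K4me1 peaks at the summit and no lower share there than at both sides. For the last 500 sites of ERα replicate 2 the share was highest at or near the summit, with 8.60% and 8.20% at the summit against 4.6% to 6.40% at 750 bp. For the last 500 sites of replicate 1, the share against H3K4me1 replicate 1 was 2.8% on the left, 2.4% at the summit and 2.2% on the right. Against H3K4me1 replicate 2 it was 3.4% at the summit and 2% on either side. In all 4 pairs of libraries the share at the summit was higher for the first 500 sites than for the last 500, with intervals that did not overlap. Inside sites had a median distance of 248.5 to 282 bp from the ERα summit to the nearest H3K4me1 summit over the 4 pairs of libraries. Between 22.4% and 29.8% of the inside sites lay within 100 bp of that summit. The overlap that defines inside limits these distances, and no moved sites were compared.

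**Figure D2:**
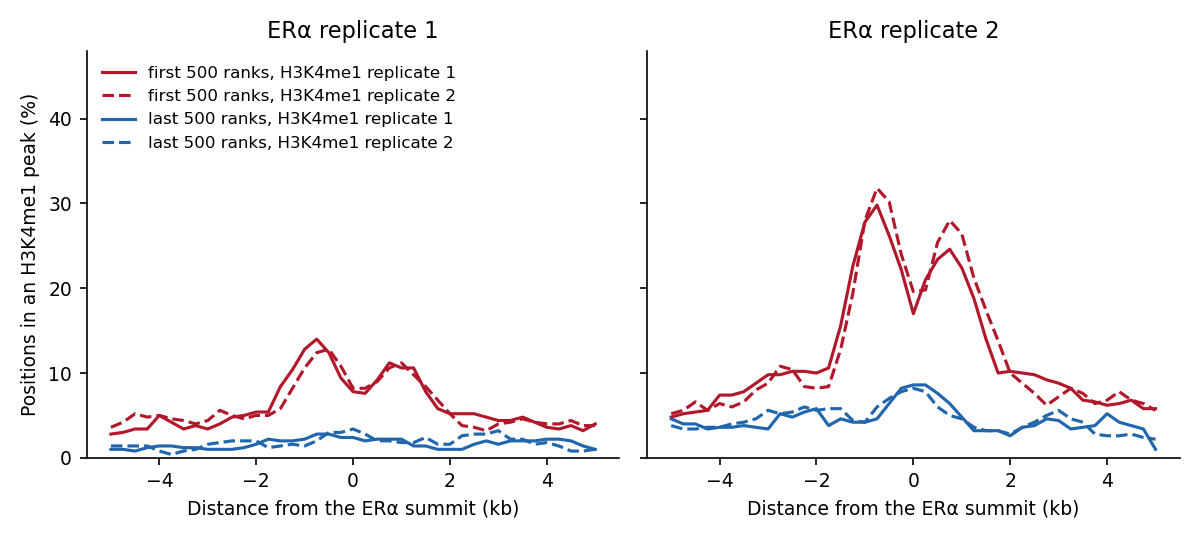
Share of positions that lay in an H3K4me1 peak (vertical axis, %) by distance from the ERα summit (horizontal axis, kb, in steps of 250 bp), for the first 500 ranks (red) and the last 500 ranks (blue) of each ERα library and for each H3K4me1 library (solid and dashed). The red lines peak near 0.75 kb on both sides and drop at the summit, to 17% and 19.6% in ERα replicate 2, and the blue lines do not.

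Seen from the mark, few H3K4me1 peaks held an ERα site. Of the 50000 top peaks, 0.63% and 0.57% in H3K4me1 replicates 1 and 2 held a site of ERα replicate 1, and 2.30% and 2.19% held a site of ERα replicate 2. The stronger H3K4me1 peaks held one more often. In H3K4me1 replicate 1, 4.70% of the first 5000 peaks and 1.38% of the last 5000 held a site of ERα replicate 2, a difference of 3.32 points (2.66 to 4.01). All 4 pairs of libraries had a difference above 0, the smallest being 0.40 points (0.11 to 0.71). The 50000 peaks of H3K4me1 replicates 1 and 2 merged into 35013 and 34880 separate regions, so an ERα site can count for several overlapping peaks. The intervals treat such peaks as independent.

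In position relative to genes, inside and outside sites were not told apart with these lists. Sites were assigned to promoters, within 1000 bp of a transcript start, then to exons, introns and intergenic sequence of GENCODE. Promoters held 8.65% of inside and 6.97% of outside sites in replicate 1, and 9.59% and 7.97% in replicate 2. The differences of 1.69 points (-2.42 to 8.70) and 1.62 points (-0.92 to 4.77) both had intervals that include 0. Introns held 47.1% of inside and 53.7% of outside sites in replicate 1, and 54.2% and 53.7% in replicate 2. Intergenic sequence held 37.5% and 35.5% in replicate 1, and 31.6% and 35.3% in replicate 2. The intron and intergenic differences had opposite signs in the 2 libraries. An excess of promoter sites inside of up to 8.70 points in replicate 1 and 4.77 points in replicate 2 lies within these intervals. Other depths of the H3K4me1 lists gave a difference in promoters. With the 20000 top H3K4me1 peaks it was 10.1 points (1.49 to 24.3) in replicate 1 and 3.78 points (0.14 to 8.65) in replicate 2. With all H3K4me1 peaks at an FDR of 0.01 it was 3.12 points (0.23 to 6.93) and 2.42 points (0.54 to 4.47). The median distance to a transcript start was 11.8 and 11.9 kb inside, against 15.7 and 15.1 kb outside.

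Palindromic response elements were most frequent at the strongest ERα sites of both libraries, although most of these sites held no exact element. Within 100 bp of the summit, 8.00% of the first 500 sites of replicate 1 and 16.6% of those of replicate 2 held the exact element, against 0.60% and 1.00% of the last 500. In replicate 1 the share was 0% to 0.8% in every later run of 500 ranks. In windows of the same length 1 kb to the right it was found beside 0% of all 5000 sites of replicate 1 and 0.04% of those of replicate 2. In replicate 1, 8.65% of inside and 0.84% of outside sites held the element, a difference of 7.82 points (3.77 to 14.8). In replicate 2 the shares were 3.92% and 3.10%, and the difference of 0.82 points (-0.72 to 3.07) was not told from 0. Among the first 500 ranks of replicate 2, 14.8% of 88 inside sites and 18.7% of 251 outside sites held it, a difference of -3.95 points (-11.9 to 5.93). In replicate 1 these shares were 30.4% of 23 inside sites and 5.95% of 420 outside sites. With 1 mismatch allowed in the 10 fixed bases, the difference was 13.2 points (7.46 to 21.3) in replicate 1 and 6.65 points (3.49 to 10.3) in replicate 2. With all H3K4me1 peaks at an FDR of 0.01 the difference in the exact element in replicate 2 was 3.66 points (2.39 to 5.15).

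The single arm of the element, AGGTCA on either strand, was more frequent inside in both libraries. It was within 100 bp of the summit in 23.1% of inside and 10.9% of outside sites of replicate 1, and in 32.0% and 17.5% of those of replicate 2. The differences were 12.2 points (5.04 to 21.2) and 14.5 points (10.2 to 19.1). Windows of the same length 1 kb away held it at 12.2% of all sites in both libraries. Some palindromes also contain this arm, so the counts overlap. In replicate 2 the difference was 3.54 points (-1.62 to 9.54) with the 20000 top H3K4me1 peaks and 1.25 points (-7.35 to 9.91) within the first 1000 ranks. In replicate 1 it was 5.97 points (-2.18 to 15.5) within 250 bp of the summit. This motif was added after the data were seen.

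Of the partner motifs, the GATA motif AGATAA was in 26.9% of inside and 18.5% of outside sites of replicate 1, and in 24.4% and 20.3% of those of replicate 2. The differences of 8.41 points (0.73 to 17.7) and 4.07 points (0.14 to 8.39) had lower bounds close to 0. Both intervals include 0 with the 20000 top H3K4me1 peaks, where the differences were 8.40 points (-2.79 to 23.5) and 3.90 points (-1.34 to 9.95). The forkhead motif TGTTTAC, the kind bound by FOXA1, was in 5.77% and 3.94% of sites in replicate 1 and in 6.97% and 4.98% in replicate 2. The AP-1 motif TGANTCA was in 8.65% and 6.92%, and in 5.66% and 6.93%. The GC box GGGCGG, the kind bound by SP1, was in 1.92% and 1.27%, and in 2.18% and 1.67%. The intervals of these 3 motifs include 0 in both libraries. The forkhead difference passed 0 in both libraries with all H3K4me1 peaks at an FDR of 0.01, at 2.71 points (0.38 to 6.02) and 2.69 points (1.11 to 4.45). It passed 0 in 4 of 16 alternatives in replicate 1 and in 9 of 16 in replicate 2. The 16 include the omission of the other ERα library, which only repeats the reported value. The mean GC content of the windows moved with the classes, at 39.0% ± 7.14 (SD over 104 sites) inside and 37.5% ± 8.02 (SD over 4650 sites) outside in replicate 1. In replicate 2 it was 38.2% ± 8.17 (SD over 459 sites) and 35.6% ± 9.14 (SD over 3778 sites). Its part in the motif shares was not tested.

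Inside sites were found again in the other ERα library more often than outside sites. Of the sites of replicate 1, 25% inside and 2.95% outside overlapped one of the 5000 top sites of replicate 2, a difference of 22.1 points (14.7 to 31.2). Of the sites of replicate 2, 14.8% inside and 4.53% outside overlapped a top site of replicate 1, a difference of 10.3 points (7.25 to 13.9). After a move of 50 kb the shares were 0% to 3.85% inside and 0.13% to 0.21% outside. Sites in 1 H3K4me1 list were found again at 27.2% and 14.2%. When the summit itself had to lie in the H3K4me1 peak, the difference in replicate 2 was 2.18 points (-0.54 to 6.03). Rank moved with both measures, and its part was not tested over all sites. Within the first 500 ranks, 73.9% of inside and 19.0% of outside sites of replicate 1 were found again, and 53.4% and 41.8% of those of replicate 2. The second difference, of 11.6 points, had an interval of -0.47 to 23.3.

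Outside sites near an H3K4me1 peak differed from those farther away. In replicate 1, 549 of the 4650 outside sites had an H3K4me1 peak of either library within 2 kb of the summit, and in replicate 2 it was 781 of 3778. Of these near sites, 14.9% and 12.5% were found again in the other ERα library, against 1.34% and 2.44% of the sites farther away. The differences were 13.6 points (10.8 to 16.8) and 10.1 points (7.88 to 12.7). The palindromic element was in 4.37% of near and 0.37% of farther sites in replicate 1, and in 4.74% and 2.67% in replicate 2. These differences were 4.01 points (2.57 to 6.06) and 2.07 points (0.64 to 3.87). Nearness also moved with rank. Over all sites of replicate 1, 21% of the first 500 and 5.2% of the last 500 had a peak of both libraries within 2 kb. In replicate 2 it was 46.4% and 14.4%. The part of rank in the differences between near and farther sites was not tested.

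The sites of control cells were also looked up in ZR751shMLL3. Among the 5000 top ERα sites of ZR751shMLL3 replicate 1 were 21.2% of inside and 2.71% of outside sites of control replicate 1, and 25.3% and 12.1% of those of control replicate 2. In ZR751shMLL3 replicate 2 the shares were 12.5% and 2% for control replicate 1, and 11.1% and 5.11% for control replicate 2. All 4 differences were above 0, from 6.00 points (3.34 to 9.27) to 18.4 points (11.7 to 27.3). Within the first 1000 ranks of control replicate 2 they were -5.01 points (-13.6 to 3.52) and -2.88 points (-10.3 to 5.28). Among the 50000 top H3K4me1 peaks of each ZR751shMLL3 library, a peak was listed again at 26.9% and 43.8% of the inside sites of control replicates 1 and 2 in ZR751shMLL3 H3K4me1 replicate 1, and at 48.1% and 51.2% in replicate 2. The outside sites had such a peak at 1.7% to 6.38%. No comparison between the cell lines is drawn from these look-ups. Top SP1 sites of the control cells overlapped at most 1.31% of either class.

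**Figure D3:**
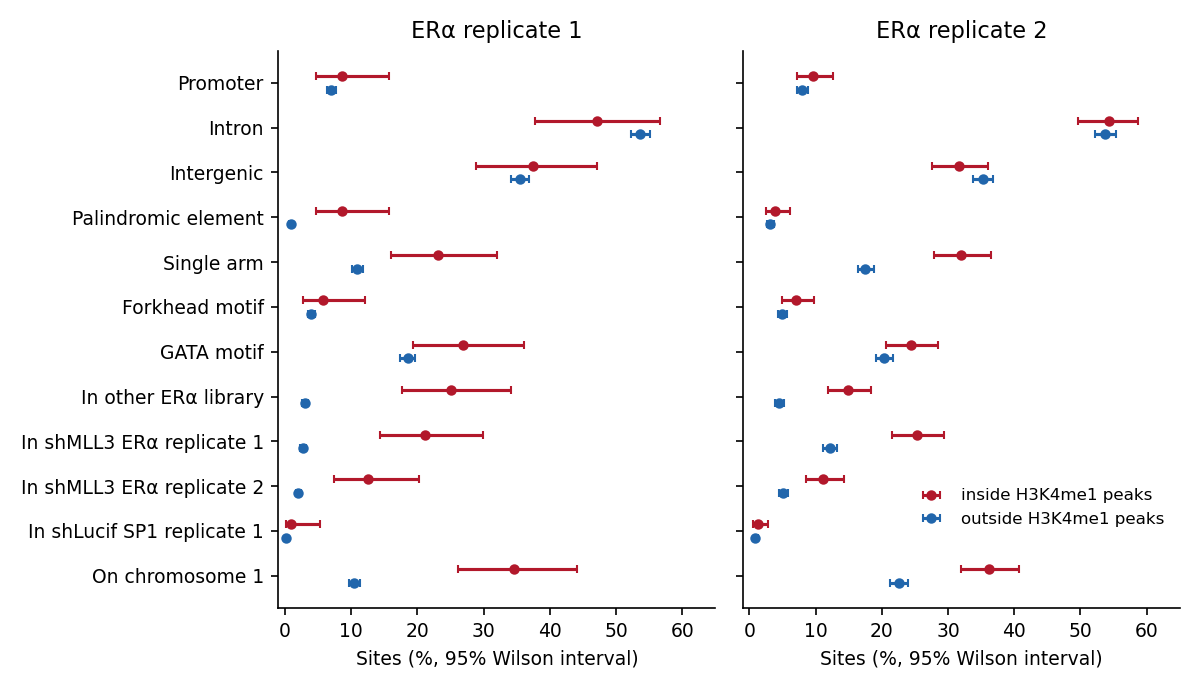
Share of ERα sites (horizontal axis, %, with 95% Wilson intervals) inside (red) and outside (blue) the H3K4me1 peaks that had each feature, for each ERα library. Promoter, intron and intergenic shares overlap between classes in both libraries, and the shares found again in other ERα lists do not, at 25% against 2.95% in replicate 1 and 14.8% against 4.53% in replicate 2.

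Chromosome 1 held a larger share of the inside than of the outside sites. It carried 34.6% of inside and 10.5% of outside sites in replicate 1, and 36.2% and 22.5% in replicate 2, with differences of 24.2 points (15.7 to 33.7) and 13.6 points (9.16 to 18.3). Chromosome 1 makes up 8.21% of the bases, and held 16.3% and 15.4% of the top H3K4me1 peaks and 23.5% and 12.5% of the top SP1 sites. Copy number was not measured in these files, and its part was not tested. Without chromosomes 1, 7 and 12 the shares inside were 1.32% and 6.19%. The differences in sites found again were then 22.4 points (12.4 to 35.8) and 15.4 points (9.89 to 22.0).

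In all, 230 sites of ERα replicate 1 overlapped a top site of replicate 2. Of these, 25 were inside in both libraries, 114 were outside in both and 91 were of other classes. The element was in 10 of the 25 inside sites (40.0%, 95% Wilson interval 23.4 to 59.3) and in 28 of the 114 outside sites (24.6%, 17.6 to 33.2). The difference of 15.4 points (-3.27 to 35.9) was not told from 0. None of the 25 inside sites was at a promoter, against 22 of the 114 outside sites (19.3%), a difference of -19.3 points (-27.5 to -4.61). A count of 0 in 25 allows a share of up to 12%, taken as 3 counts of 25, and its 95% Wilson interval reaches 13.3%. In ZR751shMLL3 ERα replicate 1, 22 of the 25 inside and 92 of the 114 outside sites were found, and in replicate 2 it was 13 and 66. Thus 88.0% and 80.7% were found in the first, a difference of 7.30 points (-11.7 to 18.6), and 52.0% and 57.9% in the second, a difference of -5.89 points (-26.3 to 14.3). Of the 114 outside sites, 59 had an H3K4me1 peak within 2 kb.

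**Figure D4:**
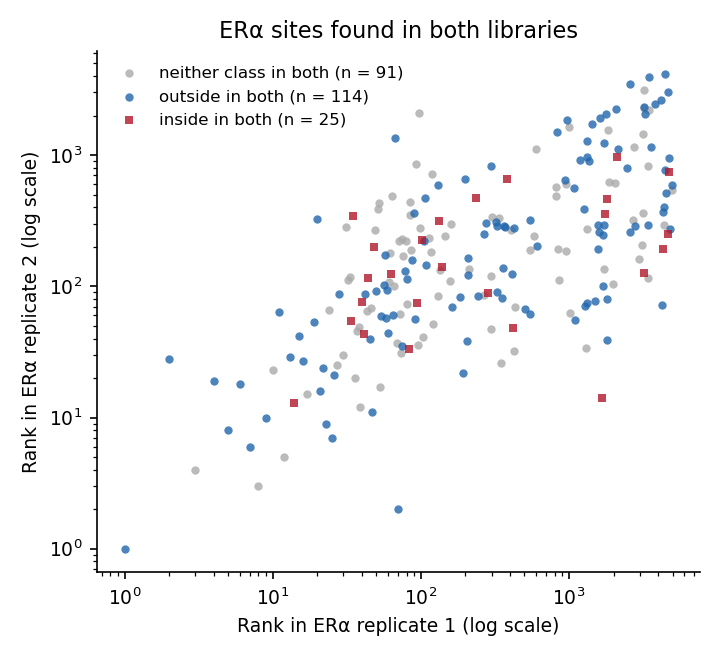
Rank in ERα replicate 1 (horizontal axis, log scale) and in ERα replicate 2 (vertical axis, log scale) of the 230 sites found in both libraries, by class. The 25 inside sites (red squares) start at ranks 14 and 13, and the 114 outside sites (blue) include rank 1 of both libraries.

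The strongest sites found inside in both libraries were led by one in an intron of TPM3, 1.23 kb from a transcript start, at ranks 14 and 13. TPM3 was at 386 and 297 FPKM in the 2 control RNA libraries. The next, at ranks 41 and 43, lay in an intron of THOC5, a subunit of the complex that prepares mRNA for export, at 20.7 and 17.8 FPKM. A site at ranks 34 and 54 lay in an exon of UPB1, an enzyme of pyrimidine breakdown, at 0.019 and 0.14 FPKM. Sites nearest to SLC7A13, an amino acid transporter, SMCO3 and TAFA2, a secreted chemokine-like protein, stood beside genes below 1 FPKM in both libraries.

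AHR, 221 kb from its site, was at 9.80 and 22.6 FPKM, and C1orf21 at 5.55 and 3.54 FPKM. WNK1, 27.3 kb from its site, was at 36.4 and 42.9 FPKM. The site nearest to NAT9, an acetyltransferase gene at 18.9 and 10.4 FPKM, lay in an intron of NHERF1 (SLC9A3R1), a scaffold protein and classical ERα target. The row of NHERF1 in the RNA table is shared with another transcript, so its level is not given. Of these 10 genes, 6 were above 1 FPKM in both libraries, which is near the 50.3% of all genes with a position that reached 1 FPKM. The levels of these 10 genes ran from 0 FPKM at SLC7A13 in replicate 2 to 386 FPKM at TPM3 in replicate 1.

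The strongest sites found outside in both libraries began with the site at rank 1 of each. It lay in intergenic sequence of chromosome 12, 37.7 kb from MIR4472-2, a microRNA gene listed at 0 FPKM. The nearest H3K4me1 peaks lay 351 and 695 bp from the summit of replicate 2. The second, at ranks 7 and 6, lay in an intron of PVT1, a long noncoding RNA gene, nearest to MIR1208, also listed at 0. The third, at ranks 5 and 8, lay between genes, nearest to SYT8, a synaptotagmin, at 24.6 and 21.2 FPKM. That site is also within 100 kb of CTSD, which encodes the protease cathepsin D, at 2168 and 2419 FPKM. The fourth, at ranks 9 and 10, lay in an intron of ATRNL1 at 1.53 and 2.23 FPKM. The fifth, at ranks 6 and 18, lay 0.49 kb from a start of RARA, the retinoic acid receptor α, at 79.8 and 35.8 FPKM. The nearest top H3K4me1 peaks were 6.26 kb and 6.53 kb from it.

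Within single libraries, the 5 strongest inside sites of replicate 1 were nearest to TPM3, UPB1, PVT1, SLC7A13 and THOC5, at ranks 14 to 41. In replicate 2 they were nearest to TPM3, PLA2G4A, RERG with 2 sites, and SMCO3, at ranks 13 to 33. RERG, a Ras-like growth inhibitor named for its regulation by estrogen, was at 34.6 and 50.4 FPKM, and its sites lay 0.98 kb and 21.9 kb from a start. The site nearest to PLA2G4A, a phospholipase, was over 1 Mb from the start of any gene with a row in the RNA table and was not assigned to a gene. The 5 strongest outside sites of replicate 1 were nearest to MIR4472-2, LINC00908, TEX14, SYT8 and RARA. Those of replicate 2 were nearest to MIR4472-2, CYP2B7P, MIR1208, FGD3 and SYT8. FGD3, an exchange factor for Cdc42, was at 8.45 and 6.17 FPKM. The pseudogene CYP2B7P, at 82.1 and 45.3 FPKM, is close in sequence to CYP2B6, and its level is uncertain.

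Genes nearest to inside sites were more often expressed than those nearest to outside sites. Of 97 genes nearest to inside sites of replicate 1, 58 (59.8%) reached 1 FPKM in both control RNA libraries, against 1481 of 3071 (48.2%) for outside sites. The difference was 11.6 points (1.46 to 20.9). In replicate 2 it was 194 of 331 (58.6%) against 1130 of 2143 (52.7%), a difference of 5.88 points (0.11 to 11.5). Over all 21611 genes with a position, 50.3% reached this level, so the outside shares lay on either side of the background. The median log2(FPKM + 0.5) was 1.82 inside and 0.63 outside in replicate 1, and 2.03 and 1.25 in replicate 2. Over all genes it was 0.93. Both differences were small against their error, and several alternatives moved a lower bound below 0. With 0.5 FPKM as the limit the differences were 8.94 points (-1.16 to 18.2) and 5.05 points (-0.68 to 10.5). Most genes of the inside sets were also nearest to an outside site, 54 of 97 in replicate 1 and 200 of 331 in replicate 2. These genes count in both shares. The intervals treat the 2 sets as independent, so whether the differences pass 0 is not settled by them.

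**Figure D5:**
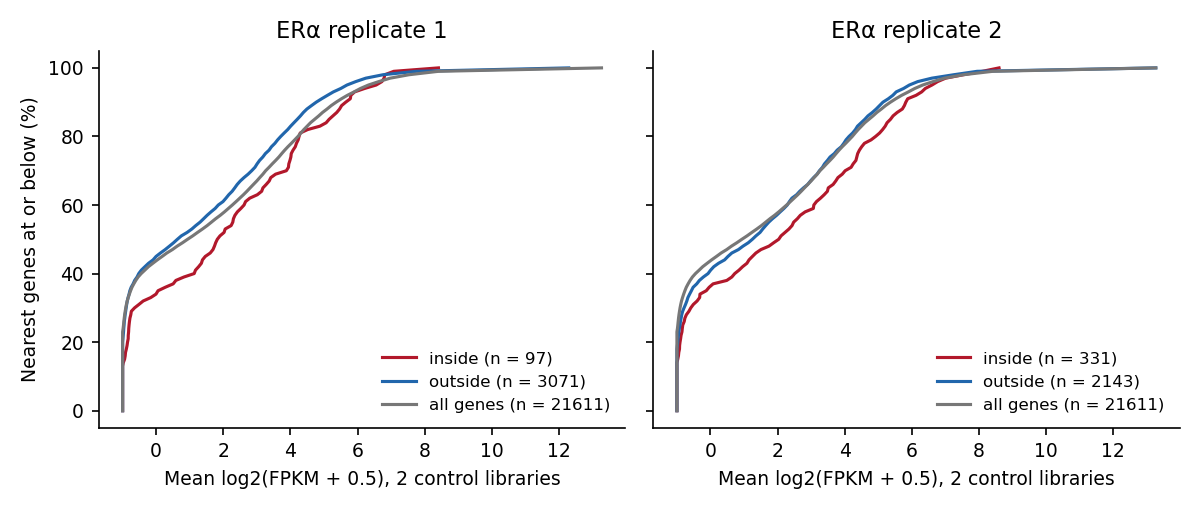
Percentage of nearest genes (vertical axis) at or below each mean log2(FPKM + 0.5) of the 2 control RNA libraries (horizontal axis), for genes nearest to inside sites (red), to outside sites (blue) and for all genes (grey). The red line lies to the right of the blue one over most of its course, with medians of 1.82 against 0.63 in ERα replicate 1 and 2.03 against 1.25 in replicate 2.

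Classical ERα target genes had top ERα sites of both classes nearby. Of 30 listed targets, 14 (46.7%) had a top ERα site within 100 kb of a transcript start in both libraries, against 10.0% of all genes with a position. In replicate 1, 4 targets had an inside site and 14 an outside site, and in replicate 2 it was 6 and 14. Over all top sites, 2.08% and 9.18% were inside and 93% and 75.6% outside, and no difference in class between target genes and other genes was tested. GREB1 had 5 sites in each library, of which 1 was inside and 4 were outside, and was at 42.0 and 43.3 FPKM. Its best sites were at ranks 11 and 64, and its inside site, printed above, was at ranks 101 and 227. AGR2, a protein disulfide isomerase secreted by luminal cells, had 1 site in each library, inside in both, at ranks 1803 and 460.

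BCL2, an inhibitor of apoptosis, had 2 sites in replicate 1 and 6 in replicate 2, of which 1 and 2 were inside. SLC9A3R1 had 1 and 2 inside sites, and SIAH2, a ubiquitin ligase, had an inside site in replicate 2 alone. PDZK1, a scaffold protein named after its values were seen, had 3 inside sites in replicate 2 and no site in replicate 1. The other 9 targets with sites in both libraries had no inside site in either. They were PGR, the progesterone receptor, MYB and EGR3, transcription factors, XBP1, a factor of the unfolded protein response, IGFBP4, a binding protein of insulin-like growth factors, ADCY9, an adenylate cyclase, RARA, CTSD and ELOVL2, a fatty acid elongase. The sites of PGR and MYB in replicate 2 lay in 1 of the 2 H3K4me1 lists, as did 3 of the 7 sites of XBP1, and the others were outside. The best ranks of CTSD were 5 and 8, those of RARA 6 and 18, and those of ADCY9 19 and 53. TFF1, the target most used as a marker of ERα activity, had no top site within 100 kb in either library, at 998 and 1406 FPKM.

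Of 12 luminal factors and ERα partners, 5 (41.7%) had a site within 100 kb in both libraries, read against the same 10.0% of all genes. These were ESR1, FOXA1, the AP-2 factor TFAP2C, the zinc finger factor ZNF217 and KMT2C, which encodes MLL3. Their sites in replicate 1 were all outside, and in replicate 2 only ZNF217 had an inside site, at rank 907, which is read against 93% and 75.6% of all sites outside. ESR1 had 1 site in replicate 1, at rank 4114, and 3 in replicate 2, the best at rank 228, of which 2 lay in 1 H3K4me1 list. FOXA1 had 1 outside site in each library, at ranks 1807 and 737, and was at 173 and 102 FPKM. ELF3, an epithelial factor named after its values were seen, had 2 inside sites in replicate 1 and no site in replicate 2. KMT2C was at 2.34 and 6.77 FPKM in the control libraries and at 1.07 and 2.69 FPKM in ZR751shMLL3.

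With 2 ERα libraries, an exact permutation test over libraries cannot give a two-sided p below 0.333, or below 0.5 when the classes are paired within each library, so no p-values are given. A difference was read as held where the intervals of both libraries lay on the same side of 0.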

How the data were processed

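RNA-seq and ChIP-seq libraries were prepared from ZR751shLucif and ZR751shMLL3 cells. Per the labels and the study's methods, the authors aligned ChIP-seq reads to hg19 with BWA 0.7.5a-r405, removed duplicates and called peaks in each library with SPP against an input. The deposited lists give the authors' signal per peak and the −log10 of their FDR, and are relaxed lists limited by rank. For RNA, the deposited table holds FPKM, which the submitters' processing notes tie to TopHat2 2.0.13, Cufflinks 2.2.1 and Cuffnorm 2.2.1.

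Peaks were ranked by signal and overlapped with Python 3.11.15, numpy 2.4.6 and pandas 2.3.3. The overlap code was checked against bedtools 2.31.1 on the top peaks of ERα replicate 2 and H3K4me1 replicate 1. The classes were checked on simulated intervals. Annotation came from GENCODE 44 lifted to GRCh37 (the hg19 assembly), and sequence from GRCh37. Of 23500 RNA rows, 22447 matched 1 gene symbol through RefSeq accessions (GRCh38 table, names only). For symbols with several rows the highest was kept, and 82 symbols without a single position were left out, which left 21611 genes. Genes were assigned by the nearest transcript start within 1 Mb. Medians used log2(FPKM + 0.5), with no filter. Shares have 95% Wilson intervals and differences Newcombe intervals, which were tested on simulated data. The reference is not masked for repeats, and input and pooled lists were not analysed here.

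The sites, gene lists and tests were chosen with earlier results of these data known. Genes named are the nearest genes of the 5 strongest inside and outside sites of each ERα library, of the 10 inside and 5 outside sites with the best worse rank that both libraries listed, and list genes with a site within 100 kb in both libraries. TFF1, PDZK1 and ELF3 were named after their values were seen, as were the single arm, the values without chromosomes 1, 7 and 12 and the sites near an H3K4me1 peak. The alternatives were other depths and thresholds of either list, other definitions of inside, promoter, motif, gene distance and expression, and each library left out.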

Additional observations from a re-analysis of the deposited data

How the results depend on the processing

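Values were recomputed under 18 other settings, and under 4 more chosen after seeing the data. Under every setting that could change this value, sites found again in the other ERα library were more frequent inside. The differences were 4.63 to 37.7 points in replicate 1 and 2.18 to 15.4 points in replicate 2, where the interval of the lowest value includes 0. The shares inside moved with nearly every definition. For ERα replicates 1 and 2 they were 0.82% and 4.6% with the 20000 top H3K4me1 peaks, 6.38% and 23.6% with H3K4me1 peaks at an FDR of 0.01, 7% and 24.4% in either H3K4me1 library, and, leaving out any 1 library, 2.08% to 4.8% and 9.18% to 17.1%. They were 1.38% and 5.44% with the ERα summit in the peak, and 4.12% and 13.3% with the summit within 500 bp. The 1000 top ERα peaks gave 3.6% and 16.5%. ERα peaks at an FDR of 0.01 gave 1.17% and 10.3%. This setting lengthened the list of replicate 1 to 98579 peaks and shortened that of replicate 2 to 3797. Without chromosomes 1, 7 and 12 the shares were 1.32% and 6.19%. The rank difference was 1.6 and 2 points with the summit rule, 7 and -7 points for the 1000 top ERα peaks, and 1.55 points in replicate 1 without the 3 chromosomes. The promoter difference passed 0 in replicate 1 at 10.1 points (20000 top peaks), 3.12 points (H3K4me1 FDR) and 2.34 points (ERα FDR). In replicate 2 it did so at 3.78 points (20000 top peaks), 2.42 points (H3K4me1 FDR), 4.84 points (promoters within 2500 bp), 2.65 points (outside sites over 2 kb from a peak) and, leaving out 1 H3K4me1 library, at 2.33 points without replicate 1 against 0.626 points without replicate 2. With ERα peaks at an FDR of 0.01 the signs in replicate 1 turned for intergenic sites, at -4.99 points, introns, at 3.79 points, and exons, at -1.15 points. In replicate 2 the intergenic difference was -5.18 points (H3K4me1 FDR), -7.47 points (without the 3 chromosomes) and -4.95 points (outside sites over 2 kb from a peak). The response element difference in replicate 2 passed 0 at 3.66 points (H3K4me1 FDR), 1.32 points (either library), 6.65 points (1 mismatch) and, leaving out 1 H3K4me1 library, at 1.37 points without replicate 2 against 0.695 points without replicate 1. Found-again sites no longer differed beyond their interval at 2.18 points (summit rule). The difference in expressed genes no longer passed 0 in replicate 1 at 8.94 points (0.5 FPKM) and 9.29 points (without the 3 chromosomes), nor in replicate 2 at 6.52 points (20000 top peaks), 0.54 points (1000 top ERα peaks), 4.56 points (ERα FDR), 5.05 points (0.5 FPKM) and 5.62 points (1 peak per merged region). The median log2 difference in replicate 2 was -0.036 for the 1000 top ERα peaks. For replicate 2, the look-up in ZR751shMLL3 ERα replicate 1 gave 2.29 points (summit rule) and -5.01 points (1000 top ERα peaks), and that in replicate 2 gave 2.79 points (20000 top peaks), -0.065 points (summit rule) and -2.88 points (1000 top ERα peaks). The causes were not tested. No paired analysis was possible because the groups compared are classes of sites within each ERα library, not samples with replicate numbers, and each difference was already taken within its own library.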

Other observations

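The gradient with rank was also present in ZR751shMLL3, against the H3K4me1 peaks of that line. The share of its top ERα sites inside fell from 10.2% in the first 500 ranks to 2.2% in the last 500 in replicate 1, a difference of 8 points (95% Newcombe interval 5.10 to 11.1). In replicate 2 it fell from 2.2% to 0.4%, a difference of 1.8 points (0.37 to 3.52). Whether the gradients of the cell lines differ was not tested.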
